A study of Mus musculus with 24 samples.

Results

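The 6 microRNAs described here are mmu-miR-137-3p, mmu-miR-138-5p, mmu-miR-153-3p, mmu-miR-218-5p, mmu-miR-219-5p and mmu-miR-383-5p, mostly written without the species prefix, which are linked to neurons or to subtypes of neural cells. They were found by name among the 696 mouse miRNAs on the arrays, and all 6 were present. Each was measured on 24 single-colour Agilent arrays hybridised with total RNA from eyes of C57BL/6J mice aged 34 days. A diffuser had covered the right eye for 10 days from postnatal day 24, which deprives the eye of form vision and makes it grow too long, and the left eye of the same mouse was the control. The groups were retina titled myopia and retina titled control with 3 arrays each, whole eye myopia and whole eye control with 6 arrays each, and sclera titled myopia and sclera titled control with 3 arrays each. All groups were of the same wild-type strain, and every control eye came from an animal whose other eye was deprived. The labels give 15 mice in all, of which 6 gave whole eyes, 9 gave retina and 9 gave sclera. Some animals therefore gave more than 1 tissue. Whether an array held RNA of 1 animal or of a pool is not stated. Retina and sclera each had 9 mice but only 3 arrays per arm, so some of their arrays held pools if all 9 were used. The p-values therefore measure only the spread between arrays, which may be partly technical. The whole-eye arrays of both arms came from 6 mice, so arrays share animals, yet the main tests treated every array as independent.

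The whole-eye labels give the same arm in the title, the source name and the phenotype field, although a sentence of the description gives the other. In retina and sclera the titles contradict all the other fields on the arm, so the direction of their arm differences is unsettled and the groups are called by their titles. Comparisons between tissues do not depend on this. Each of the 3 slides held arrays of all 6 groups, but each of the 8 positions on a slide always held the same group, so position and group cannot be told apart.

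MicroRNAs are short RNAs that guide the silencing complex to messenger RNAs, mostly through the seed, a run of bases near the 5′ end. Several are restricted to neurons or glia, where they act in differentiation and at the synapse. The retina holds photoreceptors, interneurons, ganglion cells and glia. The sclera, the outer coat of the eye, is mostly fibroblasts and collagen, and myelin in the mouse eye begins behind it, in the optic nerve.

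The mature sequences are shown because the arrays read each miRNA through its own sequence and because their seeds tell the members apart. They were matched in RefSeq (GRCm38.p6) for 5 of the 6 members, 4 under the array's name and miR-219-5p under its newer name miR-219a-5p. Capitals mark the seed, bases 2 to 8.
miR-137-3p: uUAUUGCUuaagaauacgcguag
miR-138-5p: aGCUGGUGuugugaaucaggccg
miR-153-3p: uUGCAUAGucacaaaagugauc
miR-218-5p: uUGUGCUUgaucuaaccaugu
miR-219-5p: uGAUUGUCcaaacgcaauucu
The 5 seeds are all different. Of the other mature miRNAs in the RefSeq table, only miR-7002-3p has one of these seeds, that of miR-218-5p, and it was not on the array.

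The mature sequence of miR-383-5p was not used here, and its array probes are shown in its place. Each member was read by a pair of probes that differ by 1 added base at the 3′ end of the longer one, marked by a capital.
miR-383-5p, probe of 14 bases: agccacagtcacct
miR-383-5p, probe of 15 bases: agccacagtcacctT
The probes of miR-138-5p are as short, and the longer one reaches only mature bases 9 to 23. Those of the other members have 19 to 21 bases and reach into the seed.
miR-138-5p, probe of 15 bases: cggcctgattcacaA
miR-219-5p, probe of 21 bases: agaattgcgtttggacaatcA

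In the RefSeq annotation (GRCm38.p6), miR-137-3p lies at chr3:118433901-118433923 on the plus strand, outside any other annotated gene interval. miR-153-3p lies at chr12:117250860-117250881 on the plus strand, within the interval of Ptprn2, which encodes a protein of dense-core vesicles. miR-138-5p has 2 loci, Mir138-1 at chr9:122682898-122682920 and Mir138-2 at chr8:94324312-94324334, both on the plus strand, the second within Nup93. miR-218-5p also has 2 loci, at chr5:48223966-48223986 within Slit2 and at chr11:35616840-35616860 within Slit3, genes of axon guidance ligands. miR-219-5p has Mir219a-1 at chr17:34025052-34025072 and Mir219a-2 at chr2:29845689-29845709, both on the minus strand, the second within the interval of Cercam. The Mir383 gene lies at chr8:38252133-38252202 within Sgcz. Where loci share a mature sequence, the array cannot tell which of them a signal came from.

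Levels are given as percent of each array's 75th-percentile signal, taken over the 237 miRNAs detected on all 24 arrays. Log2 levels were floored at 0.483 percent, and values of different miRNAs cannot be compared, because probes differ in brightness. The retina arrays had 353 to 401 detected miRNAs, the whole-eye arrays 305 to 357 and the sclera arrays 274 to 317. Sclera titled control replicate 3 was the dimmest, with a 75th-percentile signal of 424, against 696 to 1255 on the other sclera arrays. On sclera titled myopia replicate 2 the negative controls averaged 117 units, against at most 5.79 on any other array. The labelled tissues carried their markers: the summed level of the photoreceptor miRNAs miR-183-5p, miR-96-5p and miR-182-5p was 9974 to 13211 percent in retina, 4652 to 5730 percent in whole eye and 161 to 956 percent in sclera. The summed level of 8 mesenchymal miRNAs was 89.3 to 131 percent in retina, 278 to 578 percent in whole eye and 2887 to 3484 percent in sclera. All 3 photoreceptor miRNAs were thus detected in the sclera RNA. In such bulk RNA, fewer cells of a type and less RNA per cell cannot be told apart.

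The first question was where in the eye these miRNAs are found. All 6 were higher in retina than in whole eye and sclera, and higher in whole eye than in sclera, but by very different amounts, and for miR-383-5p the last of these rests mostly on undetected signals. miR-137-3p, miR-138-5p and miR-383-5p were not called detected on any of the 6 sclera arrays and miR-153-3p was on 3, while miR-218-5p and miR-219-5p were detected on all 24 arrays. All 6 members passed the test as higher in each of these 3 comparisons (limma, Benjamini-Hochberg adjusted over the 426 miRNAs tested). However, miR-137-3p, miR-138-5p and miR-383-5p entered the test only because they were detected outside sclera, miR-383-5p through retina alone. Their calls against sclera rest on undetected sclera signals, of which 3, 2 and 6 of 6 were set to the floor. Of all miRNAs tested, 58.7% were higher in retina than in sclera, 65% were higher in retina than in whole eye and 40.1% were higher in whole eye than in sclera, all by the same rule. The median log2 difference over all tested miRNAs was 0.81 for retina minus sclera, 0.70 for retina minus whole eye and 0.15 for whole eye minus sclera, so a difference near those values is no more than the typical miRNA shows. This split moves with the scaling: of the miRNAs called for retina minus sclera 65.8% were the higher ones, but 51.1% when scaled to the 75th percentile of all miRNAs, where the median was 0.08. For retina minus whole eye these shares were 73.9% and 56.9%, and for whole eye minus sclera 56.6% and 45.5%.

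**Figure D1:**
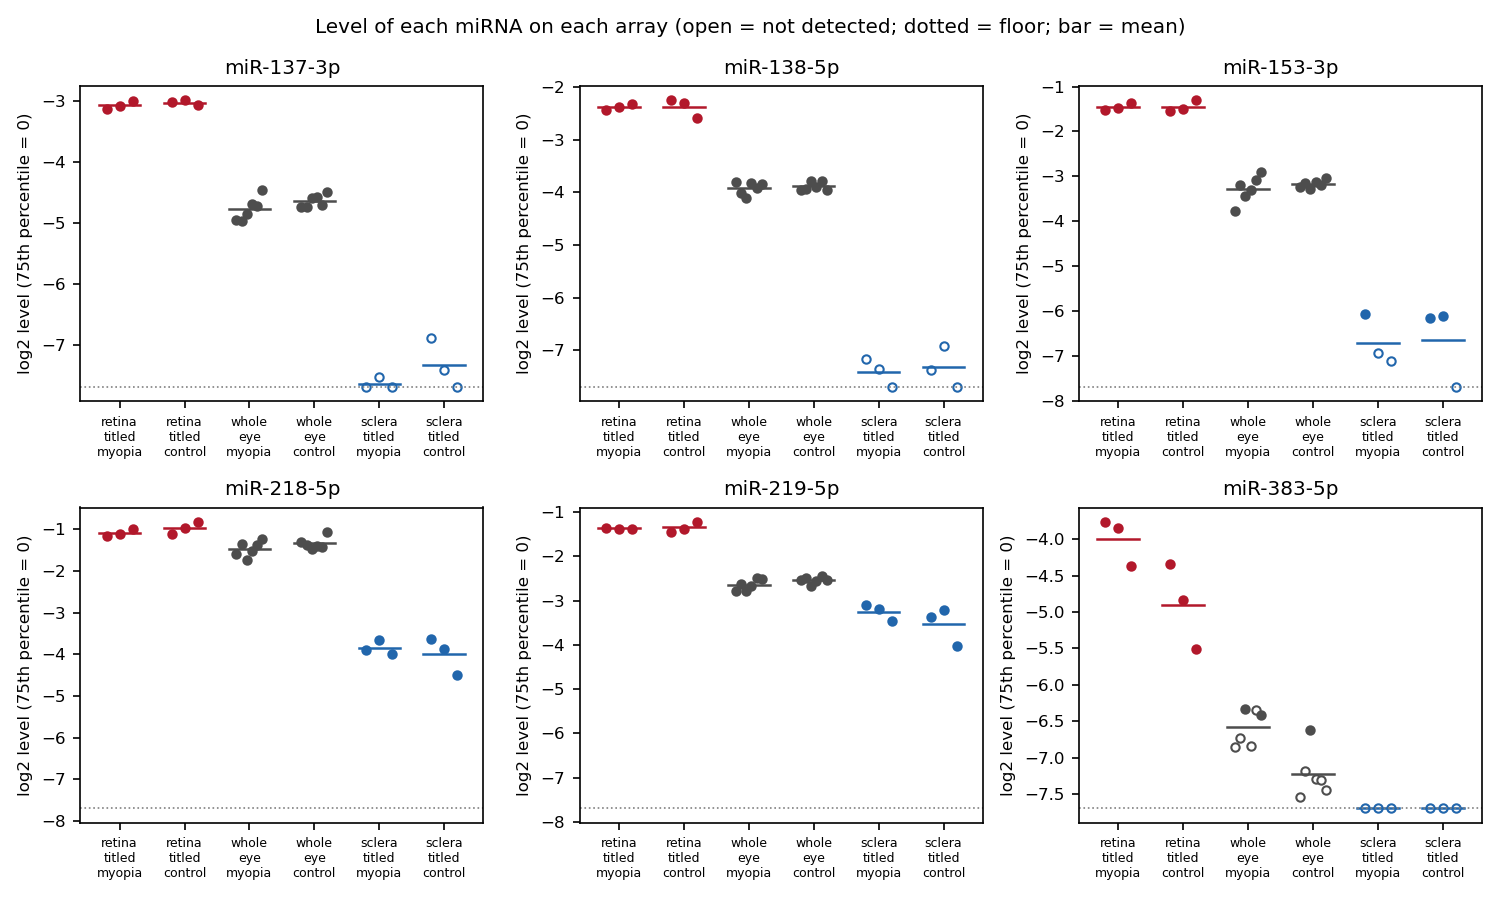
The log2 level of each of the 6 miRNAs on each array is plotted for the 6 groups, with 0 at the array's 75th-percentile signal, a bar at the group mean, open points where the miRNA was not detected and a dotted line at the floor. Retina lies highest in every panel, the sclera points of miR-137-3p, miR-138-5p and miR-383-5p are all open, and those of miR-218-5p and miR-219-5p are all filled.

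mmu-miR-137-3p, which regulates neuronal differentiation and synaptic genes, had 11.4, 12.1 and 12.6 percent (lowest, median and highest) on the 6 retina arrays. On the 12 whole-eye arrays it had 3.19, 3.80 and 4.55 percent, and on the 6 sclera arrays 0.167, 0.371 and 0.840 percent, none of them detected. The 3 tissues did not overlap. The share of all tested miRNAs with separate ranges was not counted, so separate ranges are not read as particular to any member. Retina exceeded whole eye by 1.66 ± 0.09 (log2, SE, adjusted p = 9.02e-13 by limma), a fold of 3.16. Against sclera it was at least 17.1-fold higher in retina and at least 5.40-fold higher in whole eye. These bounds set the brighter mean against the lowest signal called detected on each sclera array. Where the member's own undetected signal was larger, that signal was used. The limma adjusted p for retina minus sclera, 2.26e-19, belongs to the floored fit, with 3 of 6 sclera arrays at the floor, not to the bound.

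mmu-miR-138-5p, which in rat neurons restrains the growth of dendritic spines, had 16.5, 19.5 and 20.9 percent in retina. It had 5.83, 6.66 and 7.27 percent in whole eye, and -0.111, 0.608 and 0.828 percent in sclera, where the negative value is a signal below the local background. Again no tissue overlapped another. The retina level was 2.86-fold that of whole eye (log2 difference 1.52 ± 0.09 SE, limma adjusted p = 5.36e-12) and at least 25.2-fold that of sclera. The limma adjusted p for retina minus sclera, 4.04e-20, belongs to the floored fit, with 2 of 6 sclera arrays at the floor. Whole eye was at least 8.80-fold above sclera.

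mmu-miR-153-3p, which limits alpha-synuclein and proteins of vesicle release, had 34.3, 35.7 and 40.4 percent in retina. It had 7.26, 10.9 and 13.4 percent in whole eye and 0.053, 1.11 and 1.49 percent in sclera. Its 3 detected sclera arrays were titled myopia replicate 1 at 1.49 percent and titled control replicates 1 and 2 at 1.41 and 1.43 percent. Those are also the 3 sclera arrays with the highest mean level of 5 core neuronal miRNAs, miR-124-3p, miR-9-5p, miR-9-3p, miR-128-3p and miR-129-5p. Retina exceeded sclera by 5.23 ± 0.22 (log2, SE, limma adjusted p = 3.85e-15), a fitted fold of 37.6 that rests partly on the 3 sclera arrays where it was not detected, 1 of them at the floor. Retina exceeded whole eye by 1.78 ± 0.19, a fold of 3.43. With each probe alone, the retina minus sclera difference of miR-153-3p was 2.55 for the dimmer probe of 19 bases, at the floor on all 6 sclera arrays, and 5.03 for the probe of 20 bases.

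mmu-miR-218-5p, which is carried by the Slit genes and is enriched in motor neurons in the mouse, had 45.0, 48.3 and 56.6 percent in retina. It had 30.01, 38.3 and 48.0 percent in whole eye, and 4.46, 6.77 and 8.08 percent in sclera. Unlike in the other members, the retina and whole-eye ranges overlapped. Retina exceeded sclera 7.44-fold (log2 2.89 ± 0.12 SE, limma adjusted p = 3.10e-15) and whole eye exceeded sclera 5.73-fold. Retina exceeded whole eye by only 1.30-fold (log2 0.38 ± 0.10 SE, limma adjusted p = 0.00228), which is below the median of all miRNAs, and the difference ranked 266th of 426. That difference was -0.17 when arrays were scaled to the 75th percentile of all miRNAs, and it did not pass the test there, under quantile normalization or under normexp background correction.

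mmu-miR-219-5p, known in the mouse for driving oligodendrocyte precursors to differentiate and myelinate, had 36.9, 38.6 and 43.0 percent in retina. It had 14.6, 17.1 and 18.3 percent in whole eye and 6.18, 10.2 and 11.6 percent in sclera. The lowest sclera value was that of the dimmest array, titled control replicate 3, and the other 5 sclera arrays lay at 9.04 percent or above. The 3 tissues did not overlap, but whole eye and sclera came closer than for the other members detected in sclera. Retina exceeded sclera 4.10-fold (log2 2.04 ± 0.10 SE, limma adjusted p = 9.03e-14) and whole eye exceeded sclera 1.75-fold (log2 0.80 ± 0.09 SE, limma adjusted p = 5.69e-08). Retina exceeded whole eye 2.35-fold, a log2 difference of 1.23 ± 0.09 (SE).

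mmu-miR-383-5p, which in the mouse has been studied in ovary and testis, had 2.20, 4.88 and 7.37 percent in retina. In whole eye it had 0.538, 0.867 and 1.24 percent and was called detected on only 3 of 12 arrays. In sclera every array gave a negative signal, from -0.826 to -0.190 percent. The retina level was at least 7.78-fold that of sclera. The limma adjusted p for retina minus sclera, 2.45e-13, belongs to the fit with all 6 sclera arrays set to the floor, not to this bound. No fold is given for whole eye over sclera, since most whole-eye signals were not called detected either. The fit gave 5.51-fold for retina over whole eye (log2 2.46 ± 0.15 SE, limma adjusted p = 5.11e-12), a value that rests mostly on whole-eye signals not called detected. With the probe of 14 bases alone, at the floor on all 12 whole-eye arrays, the log2 difference was 1.72, and with the probe of 15 bases it was 2.12. Its retina range was also the widest of the 6, the highest array standing 3.36-fold above the lowest.

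**Figure D2:**
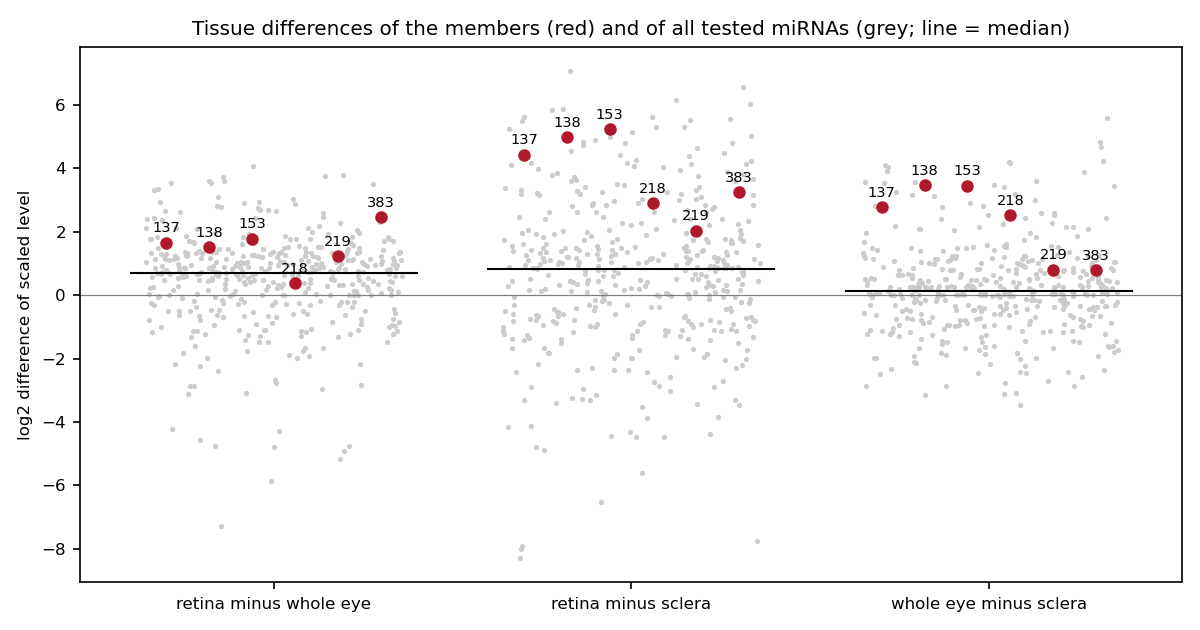
The log2 difference of the scaled level is plotted for retina minus whole eye, retina minus sclera and whole eye minus sclera, with the 6 members in red, all 426 tested miRNAs in grey and a line at the median of all. miR-137-3p, miR-138-5p and miR-153-3p lie near the top of both differences against sclera, whereas miR-218-5p lies below the median line of retina minus whole eye.

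The normexp background correction of the raw spot signals, tried in place of the processed signal, left 3 of the 6 members passing the test in each tissue comparison, and for whole eye minus sclera 2 of those 3 were negative. Under it, miR-137-3p and miR-383-5p had negative values for retina minus sclera, neither of which passed the test. The median of all miRNAs was then -0.86 for retina minus sclera, with 68 higher and 246 lower.

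The same data read as shares of the retina level separate the members. Mean whole-eye level was 31.8% of the retina mean for miR-137-3p, 34.9% for miR-138-5p, 29.4% for miR-153-3p, 42.6% for miR-219-5p and 77.3% for miR-218-5p. The 3 photoreceptor miRNAs and 5 core neuronal miRNAs serve as a scale. The photoreceptor miRNAs stood at 42.5% to 51.5% of retina in whole eye, and the core neuronal ones at 36.3% to 48.9%. Thus miR-137-3p, miR-138-5p and miR-153-3p lay below all 8 of these markers in whole eye, and miR-218-5p above all 8. This holds for the chosen scale only. Over all 426 miRNAs tested, the retina minus whole eye differences of miR-137-3p, miR-138-5p and miR-153-3p ranked 62nd, 71st and 54th from the highest, so other miRNAs differed by more.

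In sclera, the mean level was 13.7% of the retina mean for miR-218-5p and 24.9% for miR-219-5p. It was 2.69% for miR-153-3p, 2.45% for miR-138-5p and 3.49% for miR-137-3p, the last 2 from undetected signals. The photoreceptor miRNAs stood at 5.43% to 6.35% of retina in sclera and the core neuronal ones at 0.898% to 10.2%. The shares of miR-218-5p and miR-219-5p were therefore above those of all 8 markers. Over all 426 miRNAs tested, their retina minus sclera differences ranked 73rd and 104th from the highest, so most miRNAs had a smaller difference than either. The pigment epithelium miRNAs miR-204-5p and miR-211-5p stood higher in sclera, at 54.4% and 34.9% of retina. In whole eye they stood at 116.5% and 71.4%. Beside these, miR-338-3p, which like miR-219 is linked to oligodendrocytes, stood at 46.5% of retina in sclera and 46.7% in whole eye, and its partner strand miR-338-5p at 8.29% and 14.6%. Over the sclera arrays, the summed skeletal muscle miRNAs reached 373 to 712 percent, against 29.7 to 48.9 percent in retina, and the summed endothelial miRNAs 343 to 482 percent, against 114 to 136.7 percent in retina. The part of any of these cell types in the sclera level of the members was not tested.

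**Figure D3:**
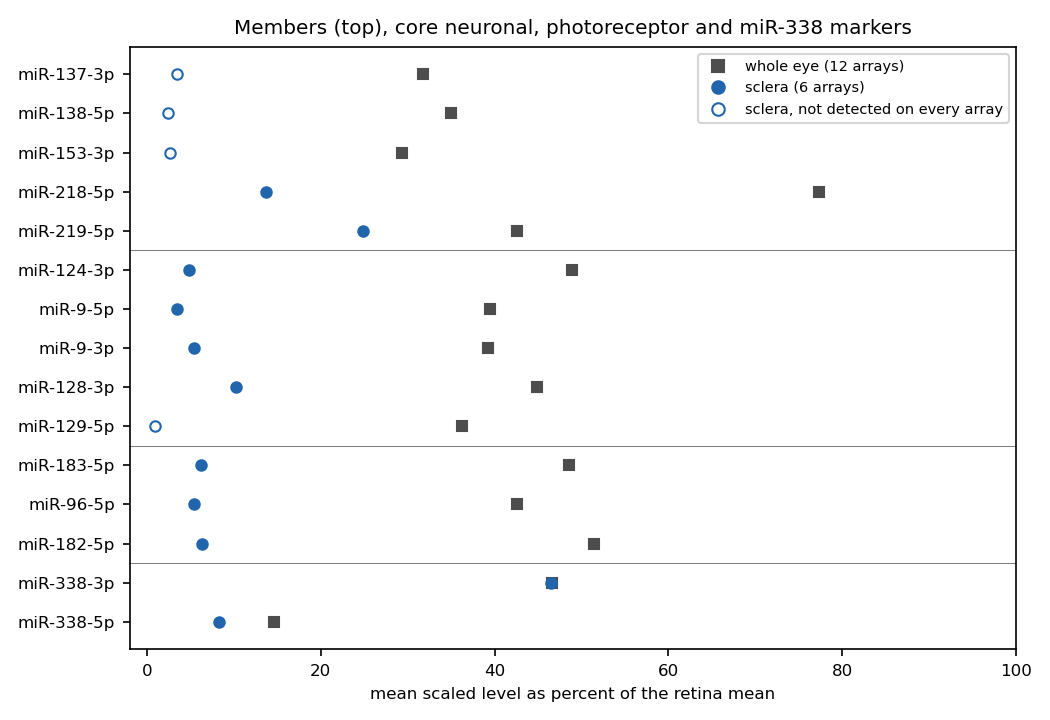
The mean scaled level in whole eye (squares) and sclera (circles, open where not detected on every array) is plotted as percent of the retina mean for 5 members, 5 core neuronal, 3 photoreceptor and both miR-338 miRNAs. The sclera circles of miR-218-5p, at 13.7%, and miR-219-5p, at 24.9%, lie to the right of every core neuronal and photoreceptor circle.

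To compare each member with the core neuronal miRNAs, the mean log2 level of the 5 core miRNAs was subtracted from the member's on the same array. The array scaling cancels in this, except where a value was set to the floor. Tissues were compared by exact two-sided permutation of the arrays. In all, 18 such comparisons were made, 3 for each member, and the p-values given are unadjusted. The core miRNAs themselves had mean log2 levels of 2.28 ± 0.04 in retina (SD, n = 6), 1.01 ± 0.06 in whole eye (SD, n = 12) and -2.56 ± 0.54 in sclera (SD, n = 6). One of them, miR-129-5p, was detected on 3 of 6 sclera arrays. Each core miRNA differed by more than the median tested miRNA: 3.30 to 7.06 against 0.81 for retina minus sclera. For retina minus whole eye this was 1.03 to 1.46 against 0.70, and for whole eye minus sclera 2.14 to 5.61 against 0.15 (log2). A miRNA with the median difference would therefore also be lower, relative to the core, in the first-named tissue. How many miRNAs are so was not counted, so such a shift is not read as particular to a member.

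Relative to the core, miR-219-5p did not differ beyond its spread between retina and whole eye, with -3.64 ± 0.09 in retina (SD, n = 6), against -3.60 ± 0.12 in whole eye (SD, n = 12), a difference of -0.04 (exact permutation p = 0.503). In sclera it was far higher relative to the core, at -0.84 ± 0.41 (SD, n = 6), so retina minus sclera was -2.80. Each retina array lay below each sclera array, and the exact permutation p of 0.00216 is the smallest that 6 against 6 arrays can give. That p does not set miR-219-5p apart, since the share of all miRNAs reaching it was not counted. Whole eye minus sclera was -2.76 (exact permutation p = 0.000108, the smallest that 12 against 6 can give). Leaving out any of the 24 arrays in turn kept these sclera differences between -2.89 and -2.63.

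miR-218-5p shifted stepwise. It stood at -3.31 ± 0.12 relative to the core in retina (SD, n = 6), -2.41 ± 0.17 in whole eye (SD, n = 12) and -1.36 ± 0.44 in sclera (SD, n = 6). Retina minus whole eye was -0.89 (exact permutation p = 0.000108) and retina minus sclera -1.94 (exact permutation p = 0.00216), without overlap of arrays in either. The gap between retina and whole eye was thus larger for the core miRNAs than for miR-218-5p, as it was than for the median tested miRNA.

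miR-153-3p went the other way between retina and whole eye, with -3.73 ± 0.08 in retina (SD, n = 6) and -4.24 ± 0.21 in whole eye (SD, n = 12), a difference of 0.51 (exact permutation p = 0.000108). miR-137-3p and miR-138-5p were likewise higher in retina than in whole eye relative to the core, by 0.39 and 0.25 (exact permutation p = 0.000108 and 0.000646). For miR-383-5p the difference was 1.19 (exact permutation p = 0.000754), with most whole-eye signals undetected. For miR-137-3p, miR-138-5p and miR-383-5p every sclera signal was undetected, and for miR-153-3p 3 of 6 were, so their values relative to the core in sclera are not read here.

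**Figure D4:**
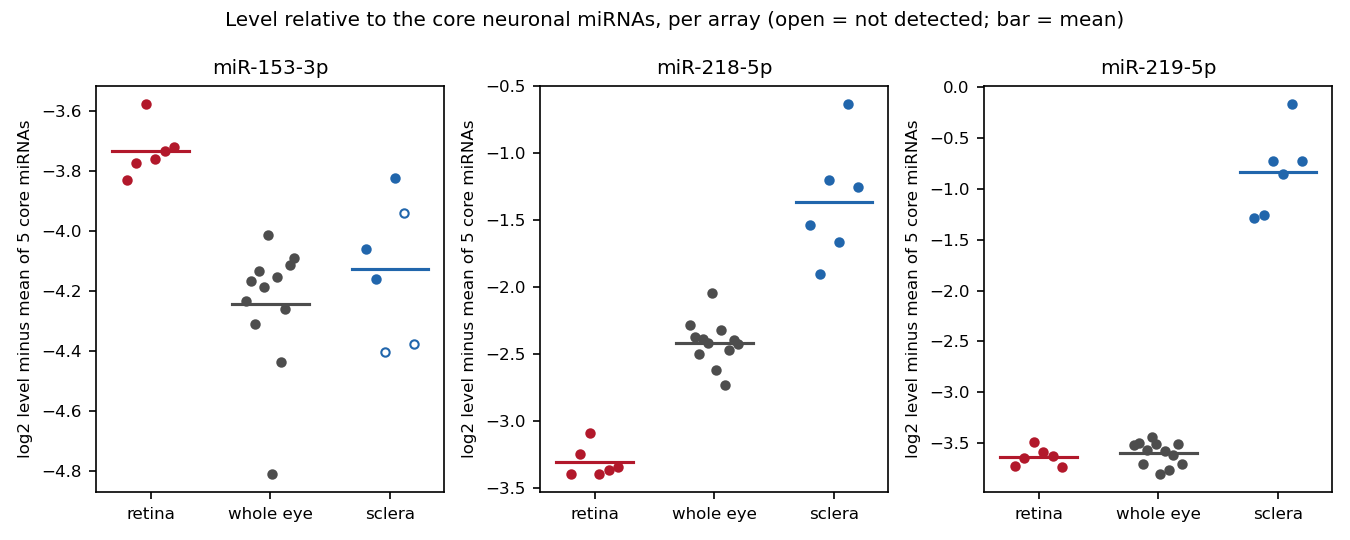
The log2 level minus the mean log2 level of the 5 core neuronal miRNAs on the same array is plotted for miR-153-3p, miR-218-5p and miR-219-5p in retina, whole eye and sclera, with a bar at the mean and open points where the miRNA was not detected. miR-219-5p sits level in retina and whole eye and far higher in sclera, where its mean is -0.84.

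A longer list of 36 neuronal miRNAs, of which 34 were on the array and 32 were tested, gives the members' surroundings. Of these 32, 29 were higher and 1 was lower in retina than in sclera by limma, with a median log2 difference of 3.46 against 0.81 over all 426 tested. Both members detected on every sclera array, miR-218-5p and miR-219-5p, lay below that list median, and miR-383-5p, with only a bound in sclera, is not placed against it. At the ends of the list stood miR-129-5p, with 7.06, and miR-212-3p, with -0.43. For retina minus whole eye, 29 of the 32 were higher and 1 was lower, with a median of 1.27 against 0.70 over all 426 tested. Over all 426, 58.7% were higher in retina than in sclera and 65% were higher in retina than in whole eye.

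The miRNAs with the most similar profile were found by the root-mean-square difference between the 6 group means, each profile centred on its own mean, over 420 other tested miRNAs. The nearest to miR-138-5p was miR-598-3p (0.057 on the log2 scale), followed by miR-9-5p (0.104) and miR-124-5p (0.106). miR-598-3p was also nearest to miR-153-3p (0.130), before miR-7a-5p (0.184) and miR-9-5p (0.207). miR-137-3p was closest to miR-132-3p (0.125), miR-9-3p (0.146) and miR-592-5p (0.174). The 3 nearest to these members thus included strands of miR-9 in each case.

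The other members kept different company. miR-219-5p was closest to miR-101b-3p (0.061), miR-495-3p (0.123) and miR-301a-3p (0.139). miR-218-5p had no near neighbour, its closest being miR-874-3p (0.280), miR-130b-3p (0.289) and miR-181b-5p (0.311). miR-383-5p was likewise apart, with miR-670-5p (0.314), miR-338-5p (0.362) and miR-705 (0.366). Among the members, miR-138-5p and miR-153-3p were closest (0.124), and miR-153-3p and miR-219-5p farthest apart (1.40). Values at the floor in sclera enter these profiles.

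Of the partner strands on the array, miR-138-1-3p was detected on 4 of 6 retina arrays, 4 of 12 whole-eye arrays and no sclera array. Its level was 0.809, 0.879 and 0.922 percent in retina and 0.653, 0.988 and 1.49 percent in whole eye (lowest, median and highest), so the retina range lay inside the whole-eye range, unlike that of miR-138-5p. miR-218-1-3p and miR-218-2-3p were not detected on any array.

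The second question was whether form deprivation changed these miRNAs. No member passed the test in any tissue by limma within that tissue's arrays. In the whole eye 5 members were tested and none passed, also without adjustment, while 10.3% of the 341 miRNAs tested were called. In retina all 6 were tested and 1, miR-383-5p, had an unadjusted p below 0.05. In retina 0% of 396 miRNAs were called and 20 had an unadjusted p below 0.05. In sclera 3 members were tested and none had an unadjusted p below 0.05, where 0% of 311 miRNAs were called and 7 had such a p.

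For 5 members the whole-eye difference, myopia minus control, was small. It was -0.05 ± 0.11 for miR-137-3p, 0.06 ± 0.08 for miR-138-5p, -0.03 ± 0.12 for miR-153-3p, -0.05 ± 0.08 for miR-218-5p and -0.01 ± 0.06 for miR-219-5p (log2, SE). Under quantile normalization miR-137-3p passed as lower, with -0.47 (limma adjusted p = 0.0376), where 64 miRNAs were called lower and 32 higher. In retina, titled myopia minus titled control ran from -0.17 ± 0.15 for miR-218-5p to -0.05 ± 0.16 for miR-138-5p over the same 5 (log2, SE), with limma adjusted p of 0.826 and 0.855. The standard errors in sclera were wider. There miR-219-5p had 11.6, 11.04 and 9.04 percent in titled myopia, against 9.64, 10.7 and 6.18 percent in titled control, a difference of 0.45 ± 0.30 (log2, SE, limma adjusted p = 0.887). The groups overlapped, and the lowest value was again the dimmest array. miR-218-5p differed by 0.31 ± 0.31 and miR-153-3p by -0.02 ± 0.47 in sclera (log2, SE).

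miR-383-5p was the exception in size. It had 7.37, 6.97 and 4.84 percent on the retina titled myopia arrays, against 4.92, 3.50 and 2.20 percent on the titled control arrays. The groups overlapped slightly, at 4.84 and 4.92 percent. Within each slide, which held 1 array of either group, titled myopia was higher, by 1.5-fold, 1.99-fold and 2.20-fold. How many other miRNAs kept the same order on every slide was not counted. The difference of 0.85 ± 0.33 (log2, SE), a fold of 1.81, did not pass the test in the fit of the 6 retina arrays (unadjusted p = 0.0478, limma adjusted p = 0.537).

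With slide as a block the miR-383-5p difference was 0.85 ± 0.18 (limma adjusted p = 0.361). In the fit of all 24 arrays, which shares the spread between the tissues, it was 0.91 ± 0.25 and passed (limma adjusted p = 0.0185), where 12% of the 426 miRNAs were called, all higher in titled myopia. Leaving out titled control replicate 3 moved the difference to 0.52 in the retina fit. The retina titled myopia arrays had 376 to 401 detected miRNAs, against 353 to 372 on the titled control arrays. The summed level of the lens and cornea miRNAs was 58.5 to 65.3 percent in titled myopia, against 14.0, 148 and 496 percent in titled control. The oligodendrocyte-linked miRNAs, of which 2 of 3 (miR-338-3p and miR-338-5p) were on the array, summed to 108, 110.2 and 109 percent in titled myopia, against 95.3, 82.7 and 84.5 percent in titled control, without overlap. Of these, mmu-miR-338-5p differed by 2.0 ± 0.69 (log2, SE, limma adjusted p = 0.537) and mmu-miR-338-3p by -0.07 ± 0.15. The bright corner control spots read 370 to 556 units in titled myopia, against 192 to 448 in titled control. The part of any of these in the difference was not tested.

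In the whole eye, where title and phenotype name the same arm, miR-383-5p had 0.867 to 1.24 percent in the 6 myopia arrays, against 0.538 to 1.02 percent in the 6 control arrays. It was called detected on 2 myopia arrays and 1 control array, too few to be tested in the fit of the 12 arrays. On each of the 3 slides both myopia arrays were above both controls, and the ratio of means was 1.48, 1.64 and 1.52. The same order by title was seen on each slide in sclera, where every signal was negative. There titled myopia had -0.190, -0.400 and -0.245 percent, against -0.447, -0.489 and -0.826 percent in titled control. The share of all miRNAs with this order on every slide was not counted, so it is not read as particular to miR-383-5p. All 35 miRNAs called in the whole eye were higher in myopia. With each probe alone, that of 14 bases was at the floor on all 12 whole-eye arrays, and that of 15 bases gave an arm difference of 0.36 (log2). Without the detection filter the difference was 0.55 ± 0.15 (log2, SE, limma adjusted p = 0.0662). Fitted with all 24 arrays, it was 0.64 ± 0.17 (limma adjusted p = 0.0248), where 7.04% of the 426 miRNAs were called. These signals, of 6.8 to 16.6 units, lie near the detection limit. On the same arrays mmu-miR-338-5p was higher in myopia by 1.14 ± 0.17 (log2, SE, limma adjusted p = 0.000545 in the fit of the 12 arrays), while the summed miR-338 level overlapped, with 35.6 to 43.7 percent in myopia and 35.8 to 39.5 percent in control. The bright corner control spots separated the arms, with 237 to 497 units in myopia and 123 to 220 in control. Their part in the miR-383-5p difference was not tested.

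**Figure D5:**
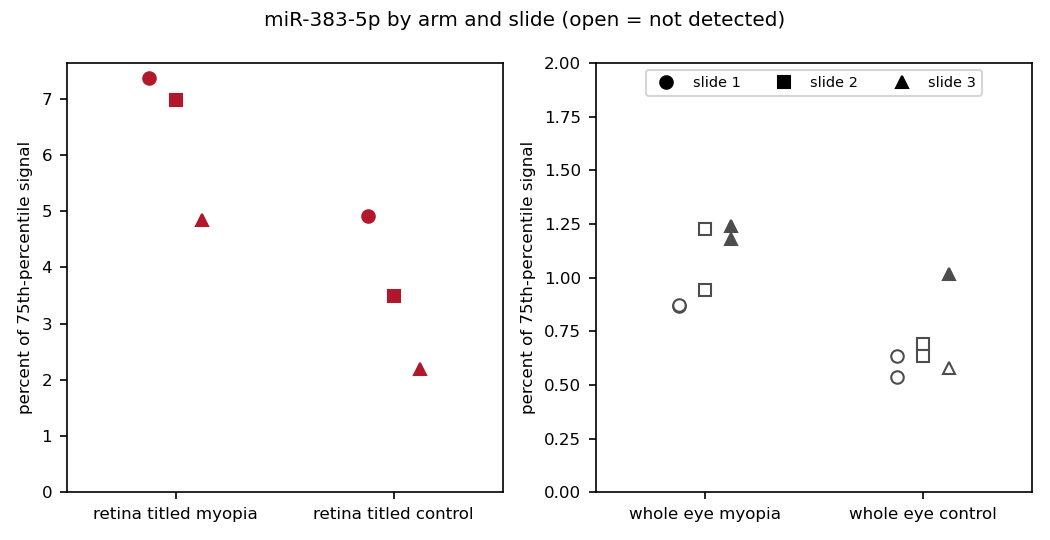
The level of miR-383-5p, in percent of the 75th-percentile signal, is plotted for the retina groups (left) and the whole-eye groups (right) by slide, with open points where it was not detected. On each slide the myopia or titled myopia arrays lie above their controls, and most whole-eye points are open.

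The arm effects were compared between tissues by interaction terms, which did not pass the test for any member by limma. For retina minus whole eye, 1.17% of the 426 miRNAs were called, and the term of miR-383-5p was 0.26 ± 0.30 (log2, SE, adjusted p = 1). None of the 6 members had an unadjusted p below 0.05 there. For retina minus sclera, 1.64% were called, and miR-383-5p had 0.91 ± 0.35 (log2, SE, limma adjusted p = 0.139), the only member with an unadjusted p below 0.05. For sclera minus whole eye, 2.35% were called, and miR-219-5p, with 0.39 ± 0.18, and miR-383-5p, with -0.64 ± 0.30, had an unadjusted p below 0.05 (limma adjusted p = 0.287 and 0.301). With the retina arms read from the phenotype field in place of the titles, the term of miR-383-5p for retina minus whole eye was -1.55 ± 0.30 (log2, SE, limma adjusted p = 0.000975), and 19% of the 426 miRNAs were called. Which reading is right decides whether miR-383-5p ran the same way in retina and whole eye.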

How the data were processed

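MicroRNA levels were measured on 24 arrays. Spot intensity values in the deposited files are Feature Extraction output (Agilent, version 11 per the submitters' processing notes), background-subtracted and called detected or not per the file headers. The series value table, deposited by the authors, holds log2 values per probe and served as an alternative. Every column used was mapped to a sample (0 unmapped).

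The 6 miRNAs and the marker lists were chosen with earlier results of these data known. The rule for other names was partner strands, the ends of the neuronal list and the 3 nearest profiles per member. Processed signals, without outlier spots, were averaged per probe, summed per miRNA, scaled to a 75th-percentile signal (over miRNAs that every fitted array detected), floored at the median lowest detected signal, and taken to log2. MiRNAs detected on 2 of 3 arrays of a group or more were tested with limma 3.58.1 in R 4.3.3 (lmFit, eBayes, Benjamini-Hochberg, adjusted p below 0.05): each tissue's arms on its own arrays, tissues and interactions on all 24. The scripts were checked on simulated data. Values relative to the core neuronal miRNAs were compared by exact permutation (scipy 1.17.1). Alternatives covered scaling, quantile normalization, normexp (offset 50), the value table, floor, filter, slide, replicate number, single arrays and the arm label. The number of arrays limits the precision.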

Additional observations from a re-analysis of the deposited data

How the results depend on the processing

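The 6 tissue calls per comparison stood under all alternatives but those named here. Scaling over all miRNAs and quantile normalization left 5 in retina minus whole eye, without miR-218-5p. Normexp (offset 50) on the raw signals left 3 members called in retina minus sclera, 3 in retina minus whole eye and 3 in whole eye minus sclera (1 higher, 2 lower). Under it the retina minus sclera value was -0.18 for miR-137-3p and -0.71 for miR-383-5p, and whole eye minus sclera was -0.81 for miR-137-3p, -0.55 for miR-138-5p, -0.27 for miR-153-3p, -0.31 for miR-219-5p and -1.11 for miR-383-5p. Scaling over all miRNAs gave -0.17 for miR-218-5p in retina minus whole eye. The probe of 14 bases alone gave 0 for miR-383-5p in whole eye minus sclera, at the floor in both. Single probes gave 3.48 and 3.79 for miR-137-3p and 3.77 and 4.55 for miR-138-5p in retina minus sclera, against 4.44 and 4.98 for their sums. The cause was not tested for these changes. In the arm comparisons 1 member was called under quantile normalization in whole eye (miR-137-3p, -0.47) and 1 (miR-383-5p) in the fit of all 24 arrays, in whole eye and in retina. With arms from the phenotype field 1 member, miR-383-5p, was called in the retina minus whole eye interaction, at -1.55. Without retina titled control replicate 1 it was called in the retina minus sclera interaction, at 1.18, so that the members called ran from 0 to 1 over arrays left out.

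Relative to the core miRNAs, leaving out arrays moved miR-137-3p in retina minus sclera, where sclera was undetected, between -0.50 and -0.29. It passed 0.05 (adjusted exact permutation p = 0.039, against 0.0779 with all arrays) without sclera titled control replicate 2 or titled myopia replicate 1. Of 839 uncalled values, 103 changed sign uncalled, 19 of them with the arm label turned. Over all miRNAs, the 35 whole-eye calls became 96 under quantile normalization (32 higher and 64 lower), 23 under normexp, 20 within slide 1 and 17 within slide 3. The 0 retina calls became 51 in the fit of all 24 arrays, all higher, 64 without titled control replicate 1 and 1 without titled myopia replicate 3. The 0 sclera calls became 2 in the fit of all 24 arrays, and the calls of retina minus whole eye, 277 higher and 98 lower, became 113 and 52 under normexp. The higher ones were 65.8% of the calls for retina minus sclera (54.0% under quantile normalization, 81.9% with the authors' values, 21.7% under normexp), 73.9% for retina minus whole eye (60.1%, 80.1% and 68.5%) and 56.6% for whole eye minus sclera (49.0%, 76.2% and 13.4%). The interaction calls over all miRNAs, 5, 7 and 10, ran from 0 to 84 when arrays were left out and from 0 to 81 under the other alternatives.

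With the replicate number as a block, no member gained or lost a call: 0 were called in the arm comparisons and 6 in each tissue comparison, and the miR-383-5p retina difference was 0.85 with an adjusted p of 0.361. Same-numbered arrays of the arms correlated at -0.22 to 0.49 in whole eye, -0.22 to 0.64 in retina and -0.37 to -0.10 in sclera. Their medians were 0.15, 0.36 and -0.13, against -0.03, -0.21 and 0.14 for arrays of other numbers. The tissues thus differed in direction and the labels state no pairs, so the numbers were not taken to pair the arrays. The pairing of eyes by animal therefore stays outside the main tests. Signals near background limit miR-383-5p in whole eye and 4 members in sclera.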
